A study of Mus musculus with 6 samples.

Results

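Of the 49548 genes in the deposited table, 10 were examined as feedback genes of the ERK pathway, namely *Dusp4*, *Dusp5*, *Dusp6*, *Spry1*, *Spry2*, *Spry4*, *Spred1*, *Etv4*, *Etv5* and *Phlda1*. They were chosen by gene name as phosphatases, sprouty-type inhibitors, ETS factors and an ERK-induced adaptor. All 10 were in the table and 8 passed the filter on low values, as did 12614 genes of all. The cells were primary synovial fibroblasts (SFs), fibroblasts of the joint lining, cultured from the ankles of CBA C57BL/6J mice aged 8 weeks. The mice carried a human TNF transgene (*hTNFtg*) and develop arthritis. Both groups carried this transgene. One group of 3 libraries was labelled as not treated and the other group of 3 was given 500 μM amisulpride, a dopamine receptor antagonist used as an antipsychotic, for 48 hours. According to the study's methods the controls received vehicle, whereas their labels give no treatment, and they are called untreated. The cells had been depleted of CD45+ leukocytes at the first passage. RNA was read by 3′ mRNA sequencing, and values are normalised counts, which are reads per gene after the authors' normalisation. The comparison asked how 48 hours of amisulpride changed the expression profile of arthritic SFs.

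ERK is the last kinase of the cascade that runs from growth factor receptors through RAS, RAF and MEK. When ERK is active, it raises the transcription of genes whose products switch the cascade off again. Dual-specificity phosphatases remove the activating phosphates from ERK itself, and sprouty and SPRED proteins act higher up, between the receptor and RAF. The transcripts of these inhibitors, like those of the ETS factors *Etv4* and *Etv5*, are short-lived and are widely read as a gauge of how active ERK has been. In fibroblasts the cascade serves growth factors such as FGFs and PDGFs.

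ERK acts on the promoters of its target genes through ETS factors, AP-1, CREB and the serum response factor, which binds the CArG box. RefSeq promoters of 300 bases on GRCm38.p6, 250 before and 50 after the start, matched 6 members by symbol, namely *Dusp5*, *Dusp6*, *Spry1*, *Spry2*, *Spred1* and *Etv5*. On both strands 4 motifs were searched. The CArG box was in the promoter of *Dusp5* alone among the 6 and in 1.64% of 32537 promoters of this length. The ETS core was searched as CCGGAA only, and these letters were in the promoter of *Spry2* alone and in 14.98% of all. Shorter or otherwise flanked ETS sites were not searched, so their presence in the 6 promoters is not known from this. The AP-1 motif TGANTCA, held by 7.79% of all promoters, and the CRE motif TGACGTCA, held by 1.8%, were in none of the 6, which says only that these letters are not in those windows. The promoters of *Dusp5* and *Spry2* are shown because they were the members that held a searched motif, with the motifs in capitals. *Dusp5* is on the + strand at chr19:53528895-53529194 and holds 2 adjoining CArG boxes, which begin 82 and 72 bases before the start. *Spry2* is on the - strand at chr14:105896770-105897069 and its CCGGAA begins at base 34 after the start.
Dusp5: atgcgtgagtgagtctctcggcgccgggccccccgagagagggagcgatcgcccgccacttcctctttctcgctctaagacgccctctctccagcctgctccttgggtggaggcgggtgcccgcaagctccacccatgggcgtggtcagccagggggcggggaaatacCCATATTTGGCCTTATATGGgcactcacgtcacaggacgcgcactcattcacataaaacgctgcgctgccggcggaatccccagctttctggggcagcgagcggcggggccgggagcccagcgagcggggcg
Spry2: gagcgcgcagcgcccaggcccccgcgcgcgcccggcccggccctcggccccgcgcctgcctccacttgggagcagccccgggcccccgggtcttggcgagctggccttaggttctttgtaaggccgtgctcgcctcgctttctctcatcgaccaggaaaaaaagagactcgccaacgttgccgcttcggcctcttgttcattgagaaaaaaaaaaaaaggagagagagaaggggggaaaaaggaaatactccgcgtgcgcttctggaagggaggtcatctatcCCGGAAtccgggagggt
The promoters of these members were rich in GC, at 57.3% to 74.0% against a median of 53.0% over all promoters. Their ratio of observed to expected CpG was 0.73 to 1.03, against a median of 0.39.

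The feedback genes lay on both sides of 0 when amisulpride-treated SFs were compared with untreated SFs. Over the 8 members tested, the median log2 fold change was -0.06, with 3 members higher and 5 lower, beside a median of 0.00155 over all genes tested, of which 6325 were higher and 6289 lower. By limma with Benjamini-Hochberg adjustment, 0 of the 8 members had an adjusted p under 0.05, against 0.285% of all genes tested (36 of 12614). At an unadjusted p under 0.05 stood 1 member, *Etv4*, against 10.9% of all genes tested, so a share of 1 in 8 is near the background. This fit did not pair the libraries by replicate number. With that number as a block, 0 members had an adjusted p under 0.05, against 263 of all genes tested. *Etv4* and *Spry1* then had unadjusted p-values of 0.0151 and 0.0432 by limma. The share of all genes under 0.05 unadjusted was not counted with the block. The study itself required a log2 fold change of 1 or more in either direction and an unadjusted p under 0.05. *Etv4* was past these thresholds as well, lower with amisulpride, which makes 1 of 8 members where 5.7% of all genes were past them, 3.01% lower and 2.69% higher. With the block *Etv4* was again the 1 member past them, beside 834 of 12614 genes tested. *Etv4* was also the one member whose groups did not overlap. Over all genes tested 16.5% had groups that did not overlap, and in 8.66% the treated group was the lower one.

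**Figure D1:**
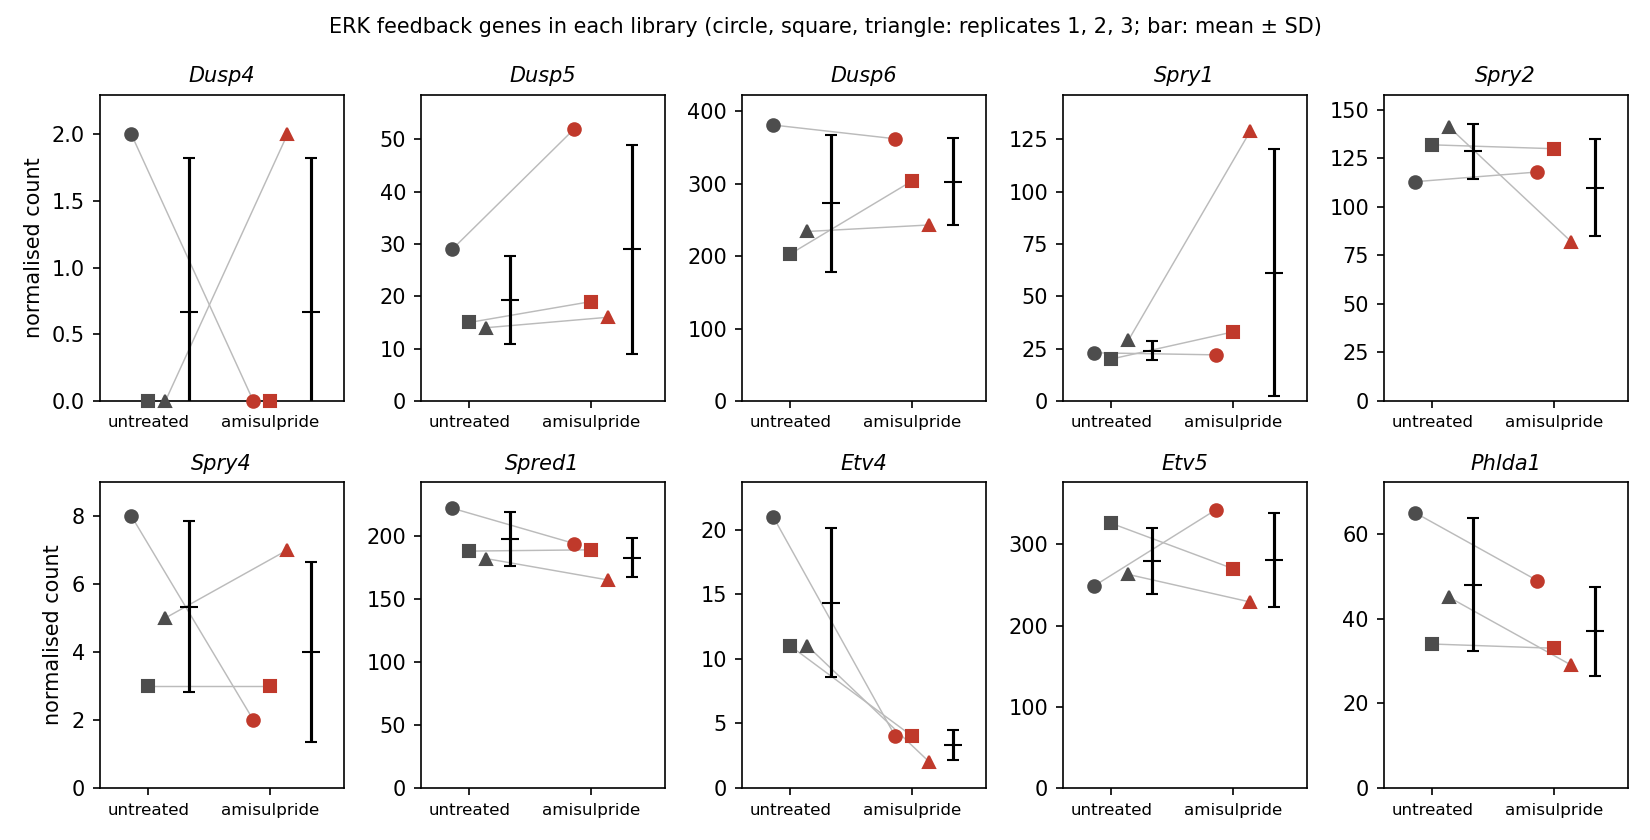
Normalised count (vertical axis, from 0) of each of the 10 ERK feedback genes in the 3 untreated (grey) and 3 amisulpride (red) libraries. Circle, square and triangle are replicates 1, 2 and 3, grey lines join equal replicate numbers, and black bars give the mean ± SD (n = 3), cut at 0 for *Dusp4*. The *Etv4* values of 4, 4 and 2 with amisulpride lie below the untreated 21, 11 and 11, while the groups overlap in every other panel.

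*Dusp6* encodes the cytoplasmic phosphatase that is specific for ERK, and is a feedback gene often used as a readout of the pathway (chr10:99263231-99267488, + strand, mm10). It stood at 381, 203 and 234 normalised counts in untreated replicates 1, 2 and 3, and at 362, 304 and 243 in the amisulpride replicates with the same numbers. Replicate 1 was the highest library of either group, and the treated values lay inside the untreated range. The means were 273 ± 95.1 and 303 ± 59.5 (SD, n = 3), and the log2 fold change was 0.19 ± 0.29 (SE) with a 95% interval of -0.46 to 0.83 (adjusted p = 0.85 by limma). Changes past 2-fold in either direction lie outside this interval.

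*Dusp5*, the nuclear counterpart of *Dusp6* and likewise specific for ERK (chr19:53529109-53542431, + strand), stood at 29, 15 and 14 normalised counts in untreated SFs and at 52, 19 and 16 with amisulpride. In each replicate number the treated value was the higher one, by 0.82, 0.32 and 0.18 on the log2 scale. The groups nevertheless overlapped, since untreated replicate 1 exceeded amisulpride replicates 2 and 3. A log2 fold change of 0.44 ± 0.51 (SE; 95% interval -0.68 to 1.57) did not pass the test (adjusted p = 0.795 by limma). Its value was -0.07 without amisulpride replicate 1, the library at 52. With the replicate number as a block the adjusted p was 0.682.

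*Dusp4*, an inducible nuclear phosphatase that acts on ERK and on the stress kinases (chr8:34807297-34819894, + strand), was close to absent from these libraries. It had 2 normalised counts in untreated replicate 1, 2 in amisulpride replicate 3 and 0 in the other 4 libraries. All 6 values were at or under the floor of 3 reads, which is 2.502 to 5.37 normalised counts depending on the library, so no fold change is given.

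The sproutys are membrane-associated inhibitors that block the signal between growth factor receptors and RAF. *Spry2* (chr14:105891949-105896819, - strand), whose promoter with CCGGAA is shown above, stood at 113, 132 and 141 normalised counts in untreated SFs and at 118, 130 and 82 with amisulpride. Only amisulpride replicate 3 was below the untreated range. This gave a log2 fold change of -0.24 ± 0.27 (SE; 95% interval -0.85 to 0.36; adjusted p = 0.785 by limma).

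*Spry1* (chr3:37639947-37644598, + strand) stood at 23, 20 and 29 normalised counts in untreated SFs and at 22, 33 and 129 with amisulpride. The 3 treated libraries were thus at the untreated level, slightly above it and far above it, about 72 reads in the last case. Their mean of 61.3 ± 58.9 against 24.0 ± 4.58 (SD, n = 3) rested on amisulpride replicate 3. The fitted log2 fold change was 0.92 ± 0.56 (SE) with a 95% interval of -0.31 to 2.14 (adjusted p = 0.592 by limma), and it was 0.18 without amisulpride replicate 3. Without amisulpride replicate 1 it was 1.43 with an unadjusted p of 0.025 by limma (adjusted p = 0.312), and *Spry1* was then past the study thresholds. In that fit 1000 of 12328 genes tested were past them. With the replicate number as a block the unadjusted p was 0.0432 by limma and the adjusted p 0.322. *Spry1* and *Spry2* thus had their extreme value in the same library, on opposite sides.

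*Spry4*, a sprouty often induced together with *Dusp6* (chr18:38586268-38601268, - strand), had 8, 3 and 5 normalised counts in untreated SFs and 2, 3 and 7 with amisulpride. It did not reach the filter in any group, and the groups overlapped. Without the filter its log2 fold change was -0.39 ± 0.70 (SE; adjusted p = 0.832 by limma).

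*Spred1* encodes a relative of the sproutys that brings neurofibromin to the membrane, where it switches RAS off (chr2:117121374-117182279, + strand). Of the 8 tested members it had the narrowest range on the log2 scale, at 222, 188 and 182 normalised counts in untreated SFs and 194, 189 and 165 with amisulpride. The means of 197 ± 21.6 and 183 ± 15.5 (SD, n = 3) differed by less than the spread in the untreated group. Its log2 fold change was -0.11 ± 0.24 (SE; 95% interval -0.63 to 0.42; adjusted p = 0.897 by limma), which leaves changes of 2-fold outside the interval.

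*Etv4* and *Etv5* belong to the PEA3 group of ETS transcription factors, which carry out much of the transcriptional response to FGFs. *Etv4* (chr11:101769742-101785371, - strand) stood at 21, 11 and 11 normalised counts in untreated SFs and at 4, 4 and 2 with amisulpride. Every treated value was below every untreated one, and the treated value was lower in 3 of 3 replicate numbers, with log2 differences of -2.14, -1.26 and -2. The means were 14.3 ± 5.77 and 3.33 ± 1.15 (SD, n = 3). Its log2 fold change was -1.80 ± 0.63 (SE; 95% interval -3.17 to -0.43), with an unadjusted p of 0.0146 and an adjusted p of 0.291 by limma.

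These values of *Etv4* are small. In reads they come to about 10 and 13 in untreated replicates 2 and 3, to about 21 in untreated replicate 1, whose depth is uncertain, and to about 4, 3 and 1 in the treated libraries. Amisulpride replicates 2 and 3 were at or under their floors of 4.01 and 5.37 normalised counts, and these were also the least deeply sequenced libraries. *Etv4* passed the filter through the untreated group alone, where it is high, so a lower treated value was favoured by the filter. Its fold change also depends on the constant added before taking logs, and was -1.18 with 5 in place of 1. When an untreated library was left out, *Etv4* failed the filter. With the filter eased to 2 libraries for this purpose, its unadjusted p by limma was 0.0899 without untreated replicate 1, 0.0339 without replicate 2 and 0.0366 without replicate 3.

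*Etv5* (chr16:22381309-22439719, - strand) stood at 249, 326 and 263 normalised counts in untreated SFs and at 343, 270 and 229 with amisulpride. Treated replicate 1 was the highest library and treated replicate 3 the lowest, so the treated range enclosed the untreated one. The means were 279 ± 41.0 and 281 ± 57.7 (SD, n = 3). Its log2 fold change was -0.00 ± 0.25 (SE; 95% interval -0.56 to 0.55; adjusted p = 0.998 by limma). The 2 PEA3 factors therefore stood apart in these libraries, *Etv4* low in counts and lower with amisulpride, and *Etv5* higher in counts with nearly equal means. The difference between these 2 fold changes was not tested.

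*Phlda1* encodes a pleckstrin homology-like protein whose transcript is induced by ERK (chr10:111506286-111508645, + strand). It stood at 65, 34 and 45 normalised counts in untreated SFs and at 49, 33 and 29 with amisulpride. The treated value was the lower one in each replicate number, with log2 differences of -0.40, -0.04 and -0.62, yet the groups overlapped. Its log2 fold change was -0.35 ± 0.36 (SE; 95% interval -1.14 to 0.44; adjusted p = 0.765 by limma). An antisense gene, *Gm28592*, overlaps *Phlda1* and had at most 4 normalised counts.

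**Figure D2:**
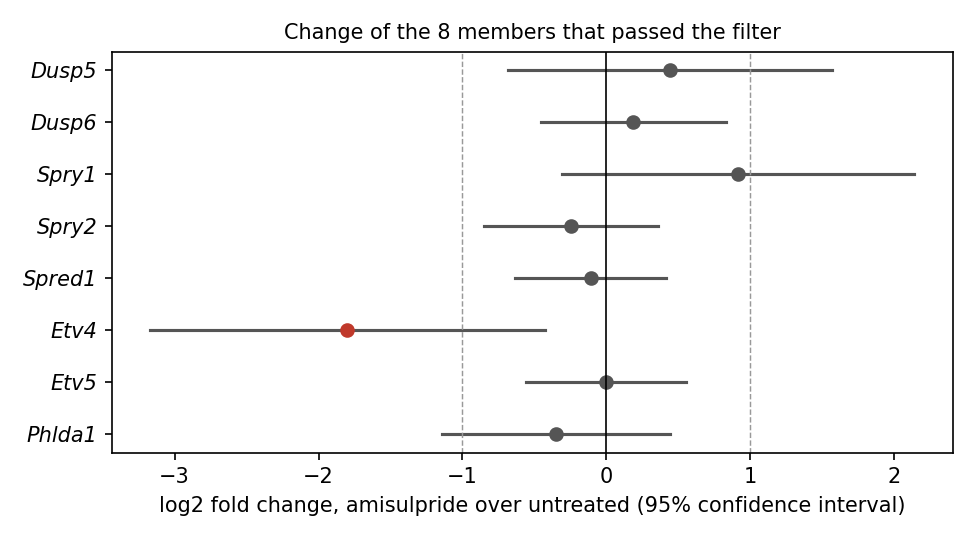
Log2 fold change of amisulpride over untreated SFs (horizontal axis) for the 8 members tested, as points with 95% confidence intervals from limma. Dashed lines mark a log2 fold change of 1 in either direction and the red point is past the study thresholds. The interval of *Etv4*, -3.17 to -0.43, is the only one that does not include 0.

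The highest and lowest values of the members often fell in the same libraries. Among the 8 tested, untreated replicate 1 was the highest library for 4 and amisulpride replicate 1 for 2, while amisulpride replicate 3 was the lowest for 5. The same counts were not made over all genes tested, so they are not a trait of the members. Averaged over the 8 standardised members, the profile was 0.62, -0.14 and -0.08 in untreated replicates 1, 2 and 3, and 0.48, -0.11 and -0.76 in the treated ones. Amisulpride replicate 3 also stood apart over all genes, at 73.9 on a first principal component that held 37.1% of the variance and on which the other 5 libraries lay between -38.2 and 10.4. It was the shallowest library, at about 2.52 M reads, where the other 5 had about 2.94 to 4.71 M. The part of depth or of this library in the members' values was not tested.

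**Figure D3:**
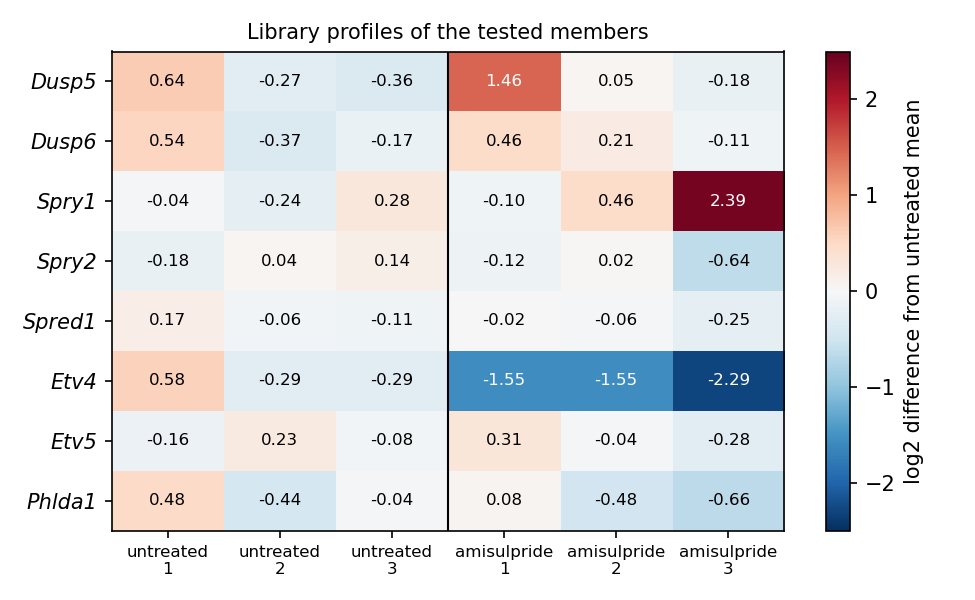
Log2(normalised count + 1) of the 8 tested members in each library minus the mean of the 3 untreated libraries (colour and printed number; red higher, blue lower). The row of *Etv4* is blue in all 3 amisulpride libraries, at -1.55, -1.55 and -2.29, and the one dark red cell is *Spry1* in amisulpride replicate 3, at 2.39.

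The genes most like *Dusp6* over the 6 libraries were *Cadm2*, *Wdr92*, *Mmaa*, *Tmx2* and *Tango6*, with Pearson correlations of 0.980 to 0.987. Those most like the mean profile of the members were *Pcyox1l*, *Metrnl*, *Las1l*, *Ccdc115* and *Lamtor4*, at 0.991 to 0.997. *Metrnl*, for example, had 462, 259 and 266 normalised counts in untreated SFs and 449, 280 and 168 with amisulpride. Being the best of all protein-coding genes tested other than the members, over 6 points that share their depth and culture, these correlations are a description only.

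The genes round the feedback loop were counted in the same fit. Other targets of ERK output, such as *Egr1*, *Fosl1* and *Myc*, had 16 of 20 genes tested and a median log2 fold change of -0.14, which was 0.01 without amisulpride replicate 3. At an unadjusted p under 0.05 stood 1 of these 16, beside 10.9% of all genes tested, namely *Elk3*, an ETS factor that represses serum response genes. It had 217, 231 and 234 normalised counts in untreated SFs and 114, 114 and 186 with amisulpride, and the groups did not overlap (log2 fold change -0.75 ± 0.27 SE, adjusted p = 0.310 by limma). *Spred3*, the relative of *Spred1*, had 23, 20 and 24 against 16, 19 and 4 (log2 fold change -0.96, adjusted p = 0.575 by limma). Its value in amisulpride replicate 3 was under the floor of 5.37 normalised counts, and its log2 fold change was -0.34 without that library. *Fosl1*, an AP-1 subunit stabilised by ERK, had a log2 fold change of -0.41 (adjusted p = 0.601 by limma).

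The other dual-specificity MAP kinase phosphatases had 8 of 9 genes tested. All 8 had a fold change below 0, where 6289 of 12614 genes tested were lower, but none had an unadjusted p under 0.05 by limma. Their median was -0.48 on the log2 scale, -0.18 without amisulpride replicate 3 and -0.73 without amisulpride replicate 1. *Dusp2*, a nuclear phosphatase of activated leukocytes, had 34, 6 and 20 normalised counts in untreated SFs and 14, 0 and 4 with amisulpride. The treated value was lower in each replicate number while the groups overlapped (log2 fold change -2.03 ± 0.97 SE, adjusted p = 0.483 by limma), and amisulpride replicates 2 and 3 were under their floors. With the replicate number as a block its unadjusted p by limma moved from 0.0587 to 0.00638, which is past the study thresholds, at an adjusted p of 0.127. *Dusp3* and *Dusp8*, phosphatases that act on ERK and on JNK and p38 respectively, had log2 fold changes of -0.65 and -0.85 (adjusted p = 0.516 and 0.579 by limma).

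The RAS-RAF-MEK-ERK core was expressed throughout, with 23 of 23 genes tested and a median log2 fold change of -0.02. An unadjusted p under 0.05 by limma was reached by 2 genes that were higher and 2 that were lower, 4 of 23 beside 10.9% of all genes tested. The RAF kinase *Araf* had 298, 388 and 305 normalised counts in untreated SFs and 569, 541 and 703 with amisulpride (log2 fold change 0.87 ± 0.24 SE, adjusted p = 0.183 by limma). The RAS-related GTPase *Rras* had 475, 711 and 607 against 1132, 1031 and 1006 (log2 fold change 0.84 ± 0.24 SE, adjusted p = 0.208 by limma). For both, the groups did not overlap, with amisulpride higher. The scaffold *Ksr1*, which holds RAF, MEK and ERK together, had a log2 fold change of -0.84 (adjusted p = 0.455 by limma).

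Receptors upstream of ERK had 11 of 15 genes tested and a median log2 fold change of -0.14, which was 0.03 without amisulpride replicate 1. *Fgfr2*, a receptor for FGFs, had 72, 100 and 54 normalised counts in untreated SFs and 145, 108 and 161 with amisulpride (log2 fold change 0.89 ± 0.31 SE, adjusted p = 0.284 by limma). The collagen receptor *Ddr1* had 512, 445 and 431 against 395, 232 and 168 (log2 fold change -0.89 ± 0.31 SE, adjusted p = 0.294 by limma). Neither pair of groups overlapped. The interval that the table gives for *Fgfr2* also spans other genes, among them *Bub3* with up to 1130 normalised counts, so what its value counts is uncertain. The other collagen receptor, *Ddr2*, had a log2 fold change of 0.46 (adjusted p = 0.573 by limma).

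Ligands upstream of ERK had 15 of 20 genes tested, a median log2 fold change of 0.08 and 5 genes past the study thresholds, 3 higher and 2 lower, beside 5.7% of all genes tested. This median was -0.24 to 0.27 over the alternative settings. *Fgf18*, an FGF of cartilage and bone, had 2, 0 and 0 normalised counts in untreated SFs and 10, 32 and 13 with amisulpride. Its untreated values were all under the floor, so its fitted log2 fold change, 3.58 with 1 added and 1.95 with 5 added, is no measure of size. It entered the fit through the amisulpride group alone, where it is high, and failed the filter whenever an amisulpride library was left out, so a higher treated value was favoured by the filter. With that limit, its adjusted p by limma was 0.113, 0.0441 with the replicate number as a block and 0.0298 with weights per library. *Fgf2*, the basic FGF of fibroblasts, had 155, 146 and 45 against 198, 246 and 451 (log2 fold change 1.47 ± 0.46 SE, adjusted p = 0.245 by limma), and its log2 fold change was 0.89 without untreated replicate 3. *Hgf*, the ligand of the MET receptor, had 30, 41 and 58 against 113, 40 and 145, with overlapping groups (log2 fold change 1.05, adjusted p = 0.434 by limma). Lower with amisulpride were *Fgf10*, a mesenchymal FGF, at 37, 31 and 32 against 17, 15 and 4 (log2 fold change -1.60 ± 0.52 SE, adjusted p = 0.260 by limma), and *Pdgfc*, a ligand of the PDGF receptor alpha, at 76, 58 and 89 against 38, 19 and 52 (log2 fold change -1.10 ± 0.39 SE, adjusted p = 0.303 by limma). The *Fgf10* value in amisulpride replicate 3 was under the floor of 5.37 normalised counts, and its log2 fold change was -1.01 without that library.

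Effector kinases and nuclear substrates of ERK had 9 of 10 genes tested and a median log2 fold change of -0.34, which was -0.11 without amisulpride replicate 3. *Elk1*, the ETS factor that partners the serum response factor, had 81, 125 and 118 normalised counts in untreated SFs and 70, 63 and 45 with amisulpride, without overlap (log2 fold change -0.85 ± 0.30 SE, adjusted p = 0.305 by limma). *Srf* itself, whose CArG motif occurs in the *Dusp5* promoter, had a log2 fold change of 0.46, and the translation kinase *Mknk2* 0.55 (adjusted p = 0.585 and 0.557 by limma). Over these 6 lists no gene had an adjusted p under 0.05 by limma in the fit with equal weights and no block. The intervals of *Elk3*, *Hgf* and *Fgf2* overlap *Cdk17*, *Gm43489* and *Nudt6*, which had at most 134, 56 and 27 normalised counts.

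**Figure D4:**
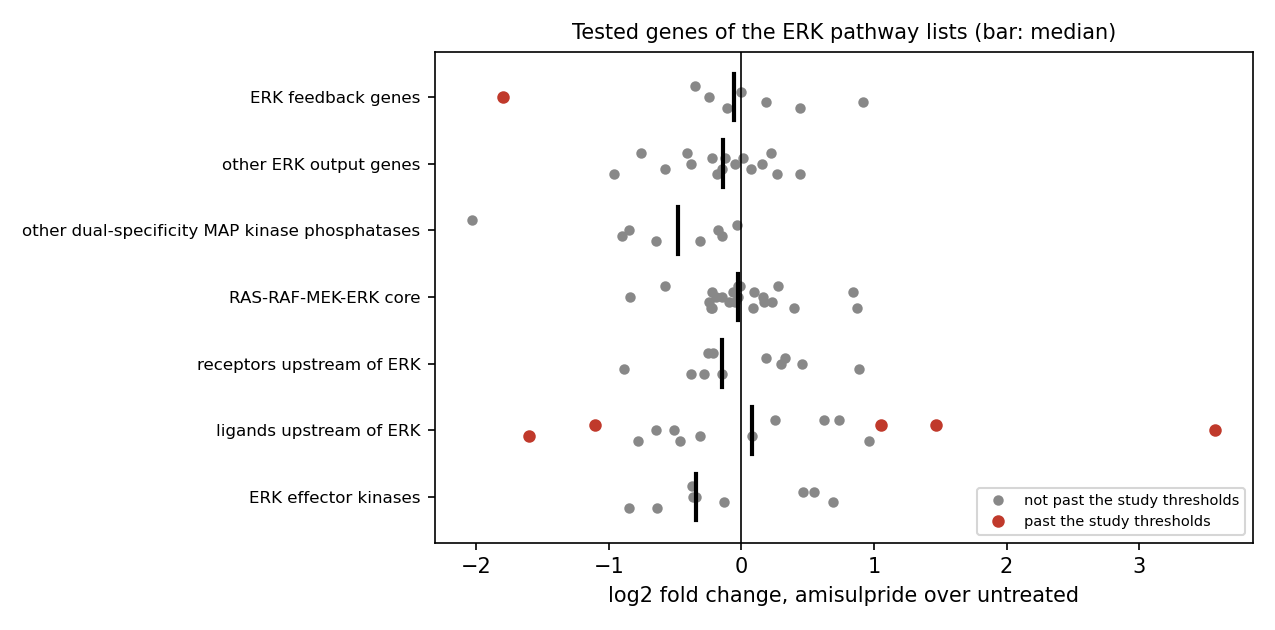
Log2 fold change of amisulpride over untreated SFs (horizontal axis) for each tested gene of the feedback list and of 6 other ERK pathway lists, with the median of each list as a black bar and genes past the study thresholds in red. Position within a list on the vertical axis carries no value. The feedback genes lie about a median of -0.06 with *Etv4* at -1.80, and the ligands range widest.

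The labelled cell type was checked against its markers, and a cell type with fewer cells or less RNA per cell cannot be told apart in such bulk samples. All 12 fibroblast markers passed the filter, with a summed level of 45004 to 59714 normalised counts in untreated and 51656 to 91388 in treated libraries. Of these 12, 3 were higher with amisulpride in each replicate number, namely *Col1a1*, *Col1a2* and *Col3a1*, and *Col1a1* alone reached 35599. Another 3 were lower in each, namely *Pdpn*, *Lum* and *Prg4*, the last at 915, 859 and 733 against 426, 304 and 653, without overlap. All 10 myeloid markers passed as well, at 2375 to 4110 and 2159 to 4117, in cells that had been depleted of CD45+ leukocytes. *Ptprc*, which encodes CD45, had 38, 12 and 18 normalised counts in untreated SFs and 23, 5 and 5 with amisulpride, with overlapping groups. Of the 10 myeloid markers, 3 were lower with amisulpride in each replicate number and 2 were higher in each. Among the latter, *Cd68* had 210, 119 and 144 normalised counts in untreated SFs and 219, 122 and 256 with amisulpride. *Cd14*, among the 3 lower ones, had 121, 69 and 76 against 47, 25 and 13, without overlap. Of the other lists 3 of 6 pericyte, 1 of 8 muscle, 0 of 8 endothelial and 0 of 7 lymphoid markers passed. In each replicate number 3 of the 6 pericyte markers were lower with amisulpride, namely *Mcam*, *Rgs5* and *Abcc9*, and 0 were higher. *Rgs5* and *Abcc9* failed the filter, and *Abcc9* had at most 2 normalised counts. *Mcam*, which passed it, had 112, 122 and 184 normalised counts against 53, 47 and 57, without overlap. *Cspg4* and *Notch3* passed as well and were mixed, at 76, 83 and 31 against 60, 55 and 93, and at 50, 132 and 175 against 145, 79 and 86. Summed levels were 251 to 399 and 189 to 266 for pericyte, 14 to 44 and 8 to 23 for muscle, 4 to 14 and 2 to 17 for endothelial and 1 to 6 and 0 to 1 for lymphoid markers, and *Cdh5*, *Tie1*, *Myod1* and *Cd3e* were at 0. The part of leukocyte or pericyte transcripts in the values of *Etv4*, *Dusp2* and the other members was not tested.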

How the data were processed

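Expression was read in 6 libraries of *hTNFtg* SFs, 3 untreated and 3 treated, which the study's methods call biological replicates. The authors mapped reads to mm10 with TopHat2, then the rest with Bowtie2, counted reads per gene, normalised the counts and tested them with DESeq, all through metaseqr, and tool versions are not given in the sources used here. The deposited values are a score: normalised read counts, rounded. Division by 1 factor per library was inferred here from steps in the values, and the study's methods do not state it. The table also holds fold changes and p-values of the authors' own comparison, which were not used, and 12 further columns of values per library that were not used either. Strand use in counting is not given in the sources used here.

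The test was limma (version 3.58.1, R 4.3.3) with a variance trend and 7.31 prior degrees of freedom, on the log2 of the normalised count plus 1. Genes entered with a value of 10 or more in 3 or more libraries. The p-values are two-sided, with Benjamini-Hochberg adjustment across the 12614 genes that entered. The added constant shrinks the fold change of low genes. An exact permutation test of 3 against 3 libraries cannot go below 0.1, so none was run.

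Members and lists were chosen with earlier results of these data known. Named are the 10 members, and of each other list the genes past the study thresholds or, where fewer than 3 are, those with the lowest p up to 3, besides the 5 protein-coding genes most correlated with *Dusp6* and with the mean member profile.

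Values rounded after scaling fall on multiples of 1 read, which was worth 0.834 to 1.79 normalised counts, so libraries held about 2.52 to 4.71 M reads. The estimate for untreated replicate 1, about 4.02 M, is uncertain. The floor is 3 reads and covers counting error only. The replicate numbers in the titles were taken to pair the libraries, since deviations from the group means of same-numbered libraries correlated at 0.229, 0.240 and 0.201 across genes, and those of all other pairs at -0.149 to -0.0777. The main fit did not use this pairing, and the replicate block did. Gene positions are those of the deposited table (mm10). Promoters are from RefSeq, and 6 of 10 members matched, with *Etv5* entered under 2 starts. *Dusp4*, *Spry4*, *Etv4* and *Phlda1* had no entry. Alternatives were another constant, no filter, quantile and upper quartile scaling, weights per library, no variance trend, the replicate block and leaving out each library.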

Additional observations from a re-analysis of the deposited data

How the results depend on the processing

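The count of all genes with an adjusted p under 0.05 by limma was 36, and 57 with 5 added before logs, 57 without the filter, 66 after quantile normalisation, 195 with weights per library, 263 with the replicate block and 0 to 120 when a library was left out. Genes past the study thresholds numbered 719, and 1313 without the filter. Among the members, 0 had an adjusted p under 0.05 under any of the 13 alternatives. The number past the study thresholds was 0 to 2 when a library was left out. It was 0 without each untreated library, where *Etv4* failed the filter, and 2 without amisulpride replicate 1, where *Spry1* joined it. Of all genes tested, 563 to 719 were past these thresholds without an untreated library, and 1000 of 12328 without amisulpride replicate 1. The number of members whose groups did not overlap was 0 to 3 when a library was left out. It was 3 without untreated replicate 1 (*Dusp5*, *Dusp6* and *Spry2*), where 25.2% of all genes did not overlap, and 3 without amisulpride replicate 1 (*Etv4*, *Phlda1* and *Spry1*), where 29.7% did not.

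*Etv4* was lower with amisulpride in all 10 alternatives that tested it (log2 fold change -1.92 to -1.18, adjusted p 0.110 to 0.417) and past the study thresholds in all 10. These 10 all kept every untreated library, the group through which alone *Etv4* passed the filter. A lower treated value was thus favoured wherever the filter was used, and the count of 10 is no independent check. With the filter eased to 2 libraries, an alternative chosen after seeing the data, it was -1.51, -1.95 and -1.95 without untreated replicates 1, 2 and 3, and not past the thresholds in the first case. The log2 fold change of *Dusp5* ranged from -0.067 to 0.759 when a library was left out. That of *Etv5* was 0.045 with weights per library and -0.16 to 0.13 when a library was left out. The cause of these shifts was not tested. The median over the members was -0.16 to 0.05, of either sign. The weights per library were 0.369 for amisulpride replicate 3 and 0.736 to 1.70 for the others. No setting moved the median of all genes by as much as 0.1 on the log2 scale. The replicate block changed no call of a named gene other than those of *Fgf18* and *Dusp2* given above, and moved the unadjusted p of *Spry1* below 0.05. *Hgf* was not past the study thresholds in 7 alternatives, *Pdgfc* in 2 and *Fgf2* in 1, while *Dusp2* was past them in 4, *Fgfr2* and *Dusp8* in 2 each and *Ksr1*, *Ddr1*, *Elk1* and *Spred3* in 1 each. Depth limits what can be said of *Dusp4*, *Spry4* and *Etv4*, which are at or near the floor.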

Other observations

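*Etv1*, the other PEA3 factor beside *Etv4* and *Etv5*, was below the filter and is named here after its values were seen. It had 2, 3 and 3 normalised counts in untreated SFs and 13, 7 and 7 with amisulpride, so the groups did not overlap and the treated values were the higher ones. Without the filter 11.6% of all genes had groups that did not overlap. Its values in untreated replicates 1 and 2 were under their floors of 2.98 and 3.16 normalised counts. Fitted without the filter, its log2 fold change was 1.41 ± 0.65 (SE), with an unadjusted p of 0.0471 and an adjusted p of 0.557 by limma. Its values lay on the opposite side from those of *Etv4*, at counts as low.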
